A study of Musca domestica with 29 samples.

Results

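CPI is 1 of the 16540 genes measured in abdomens and heads of the house fly, Musca domestica, by RNA sequencing. It was chosen from its measured values: among the genes that carry a symbol, it is one whose level parts the heads of males with the proto-Y types YM and IIIM. Differences between these types in head are therefore given as a description, without a test. The tables place CPI on Muller element E, the name for a chromosome arm that is conserved across flies, and on that element they list 3175 genes. The tables and the gene reference give the symbol CPI without a product name, so no function is stated for it here.

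In the house fly, a male-determining locus turns the sex-determination pathway to the male side, and this locus is found on different chromosomes in different males. A chromosome that carries it is called a proto-Y. On the Y chromosome it is named YM, and on chromosome III, which corresponds to Muller element A, it is named IIIM. The tables assign CPI to neither of these chromosomes.

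The 29 libraries came from individually dissected flies. Males had 4 genotypes with 3 replicates each in each tissue: YM males of strain IsoCS, YM(III) males of strain bwbCS, IIIM #1 males of strain CS and IIIM #2 males of strain CSrab. The labels give the males as isogenic apart from the YM or IIIM chromosome they carry, and for YM(III) males also apart from 1 copy of chromosome III. Females, labelled as isogenic among themselves, were of IsoCS and CSrab for abdomen and of IsoCS, CSrab and CS for head, with 1 library per strain and tissue. Ages are not stated. YM and YM(III) males together are called YM type and IIIM #1 and IIIM #2 males IIIM type, so that each type had 6 libraries per tissue from only 2 strains, and type cannot be told apart from what else those strains differ in.

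Values are the authors' normalized read counts, which divide the reads of a gene by 1 factor per library, and the tables of the tissues were normalized separately. Reads recovered per library ranged from 0.789 to 43.5 megareads (M reads) in male abdomen, from 13.9 to 30.5 M in female abdomen, from 5.80 to 39.2 M in male head and from 28.99 to 29.84 M in female head. CPI had between 94 reads, in the head of YM replicate 1, and 20397 reads, in the abdomen of IIIM #2 replicate 3. Of 14 marker genes sought, 4 were found by symbol. The yolk protein gene yp3 was at 2460 and 3487 in female abdomens and at 49.3 to 789 in male ones, and the neuropeptide gene pdf was at 411 to 1620 in male heads and at most at 8.80 in abdomens. Other readings were less clear-cut. In female heads yp3 ranged from 582 to 6560. The receptor gene IR25a was at 378 to 634 in male heads and at 10.4 to 429 in male abdomens. As the tissues were normalized separately, near values of head and abdomen cannot be ranked from these counts. The gene bcd, whose RNA is laid down in eggs in Drosophila, was at 78.2 and 181 in female abdomens and at most at 3.40 in male ones. In head, the third replicates of all 4 male genotypes stood apart from the others on the first principal component, which held 38.0% of the variance, and in abdomen they had the highest score of their genotype on the first component (34.6%) and the lowest on the second (19.3%). Differences between the types are therefore also given for replicates 1 and 2 together and for replicate 3.

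In male abdomen, CPI was low in YM males, high in both IIIM genotypes, and split in YM(III) males. The YM libraries had normalized counts of 2264, 1417 and 1256, with a mean of 1646 ± 542 (SD, n = 3). The YM(III) libraries had 1237, 9156 and 1855, with a mean of 4083 ± 4404 (SD, n = 3). The second replicate of YM(III) thus lay among the IIIM libraries, and the other YM(III) replicates lay among the YM libraries.

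The IIIM #1 abdomens had normalized counts of 12859, 9015 and 6428, with a mean of 9434 ± 3236 (SD, n = 3). The IIIM #2 abdomens had 9597, 10546 and 7453, with a mean of 9199 ± 1585 (SD, n = 3). All 6 IIIM libraries were above all 3 YM libraries. The 6 YM-type libraries ranged from 1237 to 9156 and the 6 IIIM-type libraries from 6428 to 12859, and the ranges overlapped through YM(III) replicate 2 alone. Without it the highest YM-type library was at 2264.

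**Figure D1:**
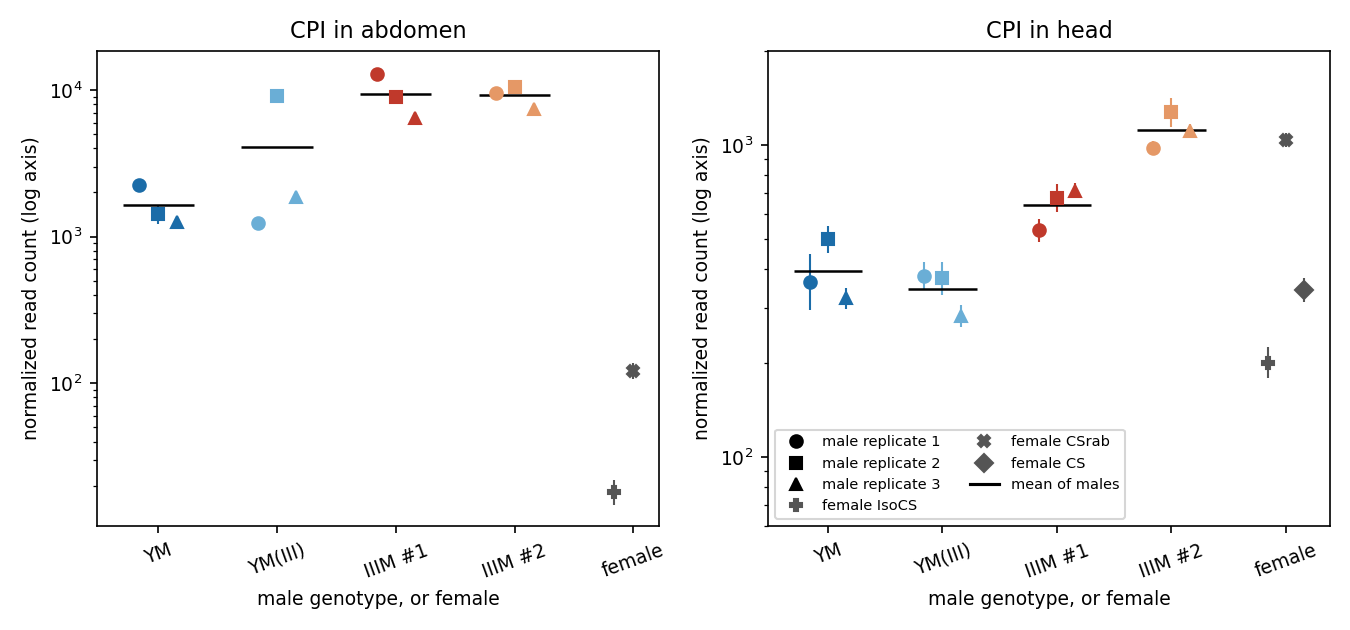
CPI normalized read counts (log axis) in each library of abdomen (left) and head (right), by male genotype and for females by strain. Points are libraries with exact 95% Poisson intervals for counting error, and horizontal lines are male genotype means. In abdomen the YM(III) replicate at 9156 lies with the IIIM libraries, and females lie at 18.0 and 122. In head the IIIM libraries start at 533 and the female of CSrab lies at 1035.

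On the log2 scale, CPI was lower in YM-type than in IIIM-type abdomens by a difference of -2.12 (SE 0.44, 95% interval -3.10 to -1.13), a 4.33-fold difference. An exact permutation test of CPI alone over the 12 libraries gave p = 0.00866, two-sided, where 0.00216 is the smallest p that 924 regroupings allow. With limma and Benjamini-Hochberg adjustment over the 11342 genes tested, CPI did not pass the threshold of 0.05 (adjusted p = 0.200). That fit called 3 genes, 0.0265% of those tested, and 120 genes (1.06%) had a larger absolute log2 difference than CPI. Without YM(III) replicate 2 the difference was -2.55 and passed (adjusted p = 0.0224). DESeq2 on the recovered reads also called it, at -1.84 (adjusted p = 0.0126), and the adjusted p otherwise ranged up to 0.711 over the alternatives.

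The difference between the types in abdomen was of like size within replicates. It was -2.08 in replicates 1 and 2 and -2.18 in replicate 3, although replicate 3 had the lowest CPI count of its genotype in YM, IIIM #1 and IIIM #2. In replicate 3 the YM-type abdomens were at 1256 and 1855 and the IIIM-type abdomens at 6428 and 7453, so that these did not overlap. As each sample is a whole abdomen or head, fewer cells that express CPI and less CPI RNA per cell cannot be told apart.

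The genotypes of 1 type were not separated in abdomen. From lowest to highest, the mean levels ran from YM over YM(III) and IIIM #2 to IIIM #1. YM against YM(III) gave a log2 difference of -0.79 (SE 0.63, 95% interval -2.18 to 0.59, limma adjusted p = 0.494, exact permutation p = 0.7), in a comparison where 9.23% of genes were called. Without YM(III) replicate 2 this difference was 0.071. YM(III) against IIIM #2, the neighbours across types, gave -1.72 (SE 0.63, limma adjusted p = 0.307, exact permutation p = 0.2), with 0.397% of genes called. Without YM(III) replicate 2 this difference was -2.59 and passed (limma adjusted p = 0.0151). IIIM #1 against IIIM #2 gave -0.0059 (SE 0.63, 95% interval -1.39 to 1.38, limma adjusted p = 1.0, exact permutation p = 1.0), with 0.0441% of genes called. With 3 libraries a side, the exact test cannot go below 0.1, and the intervals leave room for differences of more than 1 log2 unit in either direction between the IIIM genotypes.

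The authors' deposited table compares genotypes in replicates 1 and 2 alone. In the authors' deposited table, CPI was higher in IIIM #1 than in YM abdomens by a log2 difference of 2.63 (adjusted p = 4.27e-08). In IIIM #2 it was higher than in YM abdomens by 2.49 (adjusted p = 5.17e-07). These comparisons called 511 of 10344 and 479 of 9346 genes at an adjusted p under 0.05. With all 3 replicates, limma gave -2.51 for YM against IIIM #1 (adjusted p = 0.251). For YM against IIIM #2 limma gave -2.52 (adjusted p = 0.102), so neither passed. For YM(III) against YM abdomens the authors' deposited table gives 1.51 (adjusted p = 0.355), and for IIIM #2 against IIIM #1 it gives -0.10 (adjusted p = 1.0). The 3 comparisons with YM share the YM libraries.

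In head, the contrast on which CPI was chosen, the levels were lower and the groups closer. The YM heads had normalized counts of 365, 498 and 322, with a mean of 395 ± 91.4 (SD, n = 3). The YM(III) heads had 381, 374 and 283, with a mean of 346 ± 54.6 (SD, n = 3). The second replicate of YM(III), high in abdomen, was not set apart from the other YM-type libraries in head, and the labels do not say that head and abdomen of 1 number came from the same fly.

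The IIIM #1 heads had normalized counts of 533, 677 and 713, with a mean of 641 ± 95.4 (SD, n = 3). The IIIM #2 heads had 976, 1269 and 1110, with a mean of 1119 ± 147 (SD, n = 3). The YM-type heads thus ended at 498, where the IIIM-type heads began at 533. The log2 difference of the types was -1.20, -1.03 in replicates 1 and 2 and -1.56 in replicate 3. It is given without an error, as CPI was chosen on it. Of the 12060 genes tested, 303 (2.51%) had a larger absolute log2 difference and 0.473% were called, 57 genes, against 126 with the replicate number as a block.

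Within the types, the YM genotypes were close in head and the IIIM genotypes were apart. YM against YM(III) gave a log2 difference of 0.18 (SE 0.22, 95% interval -0.30 to 0.66, limma adjusted p = 0.931, exact permutation p = 0.6). In that comparison 0.804% of genes were called, 97 genes, against 431 with the block. All 3 IIIM #2 heads were above all 3 IIIM #1 heads, by a log2 difference of -0.81 for IIIM #1 against IIIM #2 (SE 0.22, 95% interval -1.29 to -0.32).

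This difference between the IIIM genotypes had an exact permutation p of 0.1, the smallest that 3 against 3 libraries allow, and did not pass with limma (adjusted p = 0.537, and 0.141 with the block). It called 0.174% of genes, 21 genes, against 37 with the block. With replicates 1 and 2 alone it was -0.89 and passed (limma adjusted p = 0.0432, in a range up to 1.0 over all alternatives). In the authors' deposited table, which uses these replicates, IIIM #2 heads were higher than IIIM #1 heads by 0.89 (adjusted p = 0.000614). That comparison called 739 of 12409 genes. In abdomen, the same genotypes differed by -0.0059, with an interval that overlaps that of head.

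The levels in head therefore stood in the order YM(III), YM, IIIM #1 and IIIM #2. The step from YM to IIIM #1 belongs to the contrast on which CPI was chosen and measured -0.71 for YM against IIIM #1. In the authors' deposited table, IIIM #1 heads were above YM heads by 0.46 and IIIM #2 heads by 1.35, given without their p as they belong to that contrast, and the YM(III) heads were at -0.20 against YM (adjusted p = 0.807).

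**Figure D2:**
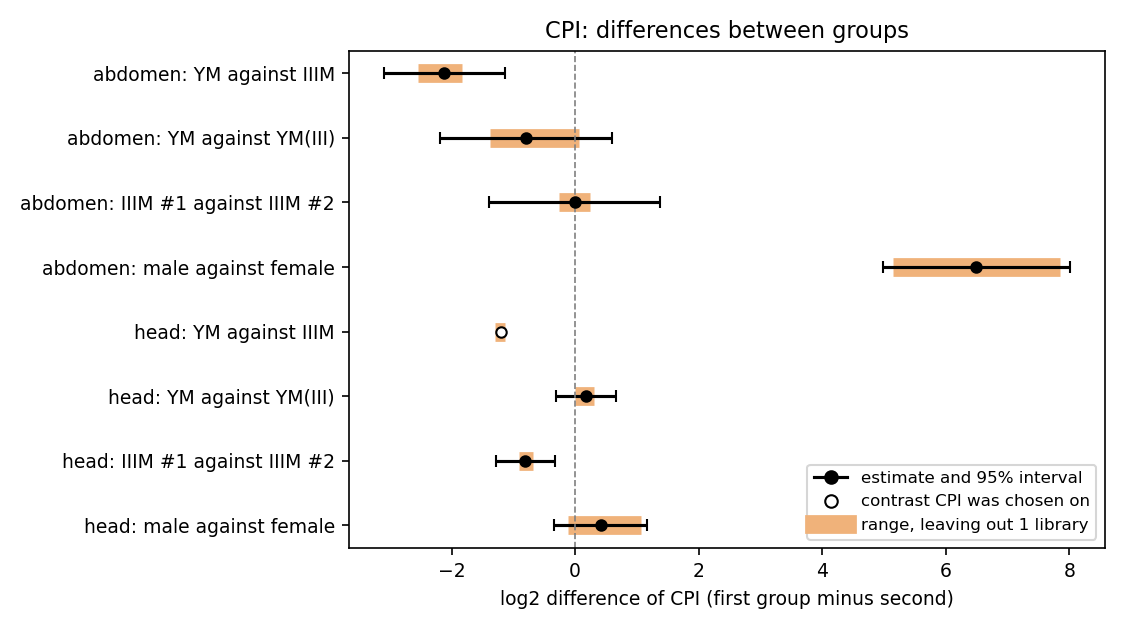
Log2 differences of CPI (first group minus second, horizontal axis) for 4 comparisons in each tissue. Filled points are limma estimates with 95% intervals, the open point is the contrast on which CPI was chosen, and bands are the range of estimates when 1 library is left out. The difference of the sexes in abdomen, at 6.50, is far to the right, and the bands of YM against YM(III) in abdomen, of IIIM #1 against IIIM #2 in abdomen and of the sexes in head reach across 0.

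The widest difference of CPI measured was that of the sexes in abdomen. CPI was at 18.0 in the female abdomen of IsoCS (110 reads) and at 122 in that of CSrab (272 reads), against 1237 to 12859, with a median of 6941, in the 12 male abdomens. All 12 males were above both females. The log2 difference was 6.50 (SE 0.70, 95% interval 4.98 to 8.02), 90.4-fold higher in males, and was called by limma (adjusted p = 7.13e-06). The exact permutation p was 0.0220, the smallest that 91 regroupings allow. In the same comparison 71.3% of genes were called and the median gene was shifted by 0.42 toward males.

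The size of this difference rested on which female was used, while the call did not. It was 5.15 without the IsoCS female (limma adjusted p = 3.30e-04) and 7.84 without the CSrab female (limma adjusted p = 4.58e-05). Strain for strain, IsoCS males, which are the YM genotype, had 91.3 times the level of the IsoCS female (69.7 to 126 over the 3 males). CSrab males, which are the IIIM #2 genotype, had 75.7 times the level of the CSrab female (61.3 to 86.8). The CSrab libraries were above the IsoCS libraries in each sex.

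In head, the sexes overlapped. Females were at 201 in IsoCS, 1035 in CSrab and 344 in CS, against 283 to 1269, with a median of 515, in the 12 male heads. The log2 difference of males and females was 0.42 (SE 0.35, 95% interval -0.33 to 1.16, limma adjusted p = 0.458, exact permutation p = 0.444), in a comparison where 16.5% of genes were called, 2015 genes, against 3124 with the block. Without the CSrab female it was 1.07 and passed (limma adjusted p = 0.0170), and without the IsoCS female it was -0.11 (limma adjusted p = 0.889).

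Matched by strain, the 3 IsoCS male heads were above the IsoCS female, with a mean ratio of 1.97, and the 3 CS male heads were above the CS female, with a mean ratio of 1.87. In CSrab the mean ratio was 1.08, and 2 of 3 males were above the female. With 1 female library per strain, these ratios are given as values only.

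Although labelled isogenic, females of the strains differed in CPI beyond counting error. The female of CSrab had 5.16 times the level of the IsoCS female in head (exact 95% interval 4.55 to 5.86) and 6.74 times in abdomen (5.39 to 8.50). The CS female lay between them in head, at 1.71 times the IsoCS female (1.48 to 1.98) and with the CSrab female 3.01 times higher (2.72 to 3.35). In male heads the means of IsoCS, CS and CSrab, which are different genotypes, stood in that order too. The place of IsoCS in male heads belongs to the contrast on which CPI was chosen. In male abdomens the means were 1646 in IsoCS, 9434 in CS and 9199 in CSrab, so CSrab was not above CS there. Each female strain is 1 library and 1 replicate number (IsoCS 1, CSrab 2, CS 3), so strain and replicate number cannot be told apart in females. The intervals cover counting error only, and no test across strains of females could be made.

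Reads of CPI per M reads in each library allow the tissues to be set side by side, without a test, as the tables were normalized separately. Mean values in abdomen were 257 for YM, 482 for YM(III), 1234 for IIIM #1 and 1165 for IIIM #2 males. In head they were 19.5, 16.1, 31.9 and 53.1. In males abdomen exceeded head in each genotype, by 13.2-fold in YM, 29.8-fold in YM(III), 38.7-fold in IIIM #1 and 21.9-fold in IIIM #2. The size of the YM(III) ratio rests on replicate 2, at 1107 reads per M reads in abdomen, where replicates 1 and 3 were at 161 and 177. In females head exceeded abdomen: the IsoCS female had 3.60 reads per M reads in abdomen and 10.3 in head, and the CSrab female had 19.6 and 47.3. The order of the tissues was thus opposite in males and females.

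**Figure D3:**
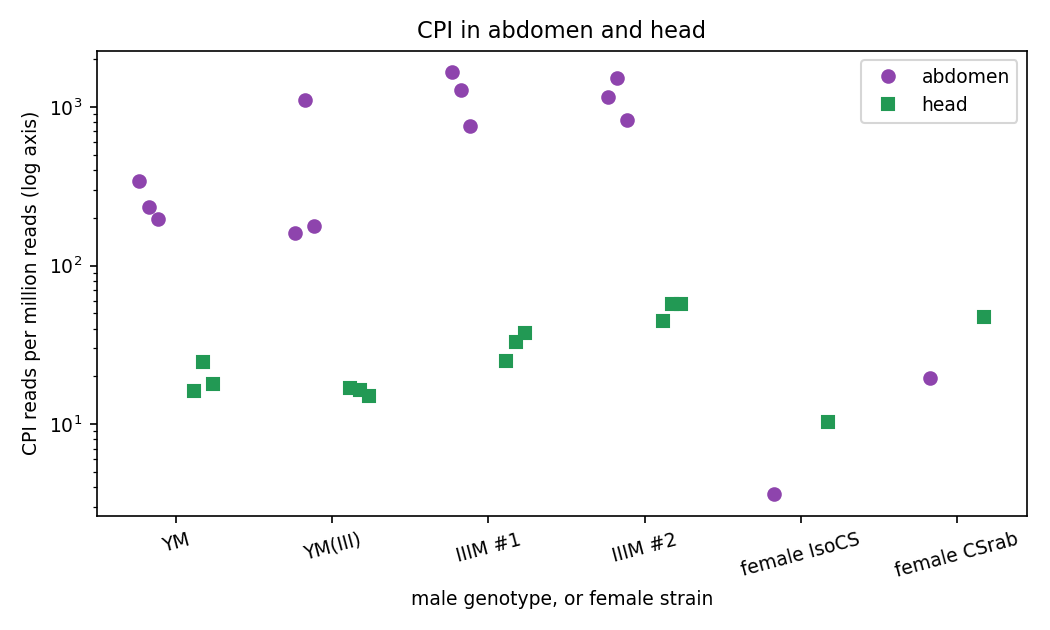
CPI reads per M reads (log axis) in abdomen and head for each male genotype and for the female strains measured in both tissues; each point is 1 library. Male abdomens lie above male heads in all genotypes, and the abdomens of females, at 3.60 and 19.6, lie below the heads of the same strains.

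The order of genes was taken from the RefSeq table, whose assembly is aabys and may differ from the build of the files. Rows whose start positions rise were taken as 1 contig, a stretch of assembled sequence, and contig names were not used. Such a run can join separate contigs, so adjacency and overlap are inferred. In this order LOC101893644 and LOC101893982 adjoin CPI on either side, both on element E. LOC101894160, also on element E, has listed positions that overlap those of CPI. The 3 other neighbours considered were LOC101893479, LOC101894508 and LOC109612910, the last of which the tables place on element A. These genes carry no product names in the files.

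Of 8093 genes with a mean of at least 50 in male abdomen, the 2 with the highest Pearson's r with CPI over all 12 males were the genes that adjoin it. Over the 12 male abdomens Pearson's r with CPI was 0.92 for LOC101893644 (Spearman's rho 0.88) and 0.92 for LOC101893982 (rho 0.92). As the types form separate groups, r was also taken within them. For LOC101893644 it was 0.80 over the 6 YM-type and 0.71 over the 6 IIIM-type abdomens, and for LOC101893982 0.78 and 0.91. The YM-type r includes YM(III) replicate 2, which had the highest YM-type count of CPI (9156) and of LOC101893644 (28999). Within the YM type, r was not taken without that library. Over all males without it, r was 0.92 for both genes, but this r again spans both types. The order depends on the measure and the libraries: in replicates 1 and 2 alone r was 0.99 for LOC101893644 but higher for SOD (0.92) than for LOC101893982 (0.91), and by Spearman's rho LOC101888986 (0.88) tied with LOC101893644. Of the 5 leading genes only LOC101893644 stayed among the 5 with replicates 1 and 2, so genes not named here also came before SOD and LOC101893982. With Spearman's rho 3 stayed. The points share libraries and their scaling factors, and the r values are given as a description. The overlapping LOC101894160 had an r of -0.12 in abdomen.

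LOC101893644 was also spread out among the YM(III) abdomens. Its normalized counts were 5843, 5643 and 7435 in YM abdomens, 4711, 28999 and 17652 in YM(III), 34088, 33624 and 24742 in IIIM #1, and 28353, 33294 and 31862 in IIIM #2. The second YM(III) replicate was again among the IIIM libraries, and the third lay between the groups, where for CPI it lay among the YM libraries. Its log2 difference of YM against IIIM type was -1.75 (SE 0.38, limma adjusted p = 0.234), and DESeq2 called it (adjusted p = 0.00421).

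LOC101893982 was at 1950, 712 and 418 in YM abdomens, 581, 1918 and 923 in YM(III), 3522, 2851 and 1498 in IIIM #1, and 2457, 2958 and 2372 in IIIM #2. The YM-type libraries, which reached 1950, overlapped the IIIM-type ones, which began at 1498. Its log2 difference of the types was -1.46 (SE 0.41, limma adjusted p = 0.448). The same difference of LOC101894160 was 0.51 (SE 0.41, limma adjusted p = 0.846). Of the 6 neighbours, 5 passed the filter on low values in abdomen. In the comparison of the types limma and edgeR called 0 of these 5, where each called 3 of the 11342 genes tested. DESeq2 called 1 of the 5 and 137 of 11053 genes, and 2 of the 5 had an unadjusted limma p under 0.05, as had 727 of all genes tested.

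Females were also far below males for these genes in abdomen. LOC101893644 was at 205 in the IsoCS and 1121 in the CSrab female, 5.13 log2 units below males (SE 0.61, limma adjusted p = 1.43e-05). LOC101893982 was at 16.7 and 51.4, a log2 difference of 5.64 (SE 0.57, limma adjusted p = 4.49e-06). LOC101894160 was at 20.6 and 10.3, a log2 difference of 4.81 (SE 0.53, limma adjusted p = 8.83e-06). These 3 were the called genes among the 5 neighbours tested, against 71.3% of all genes, and the CSrab female was above the IsoCS female for the adjoining genes but not for LOC101894160. Without the IsoCS female the differences were 3.90 for LOC101893644 and 4.86 for LOC101893982, and without the CSrab female they were 6.35 and 6.43.

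**Figure D4:**
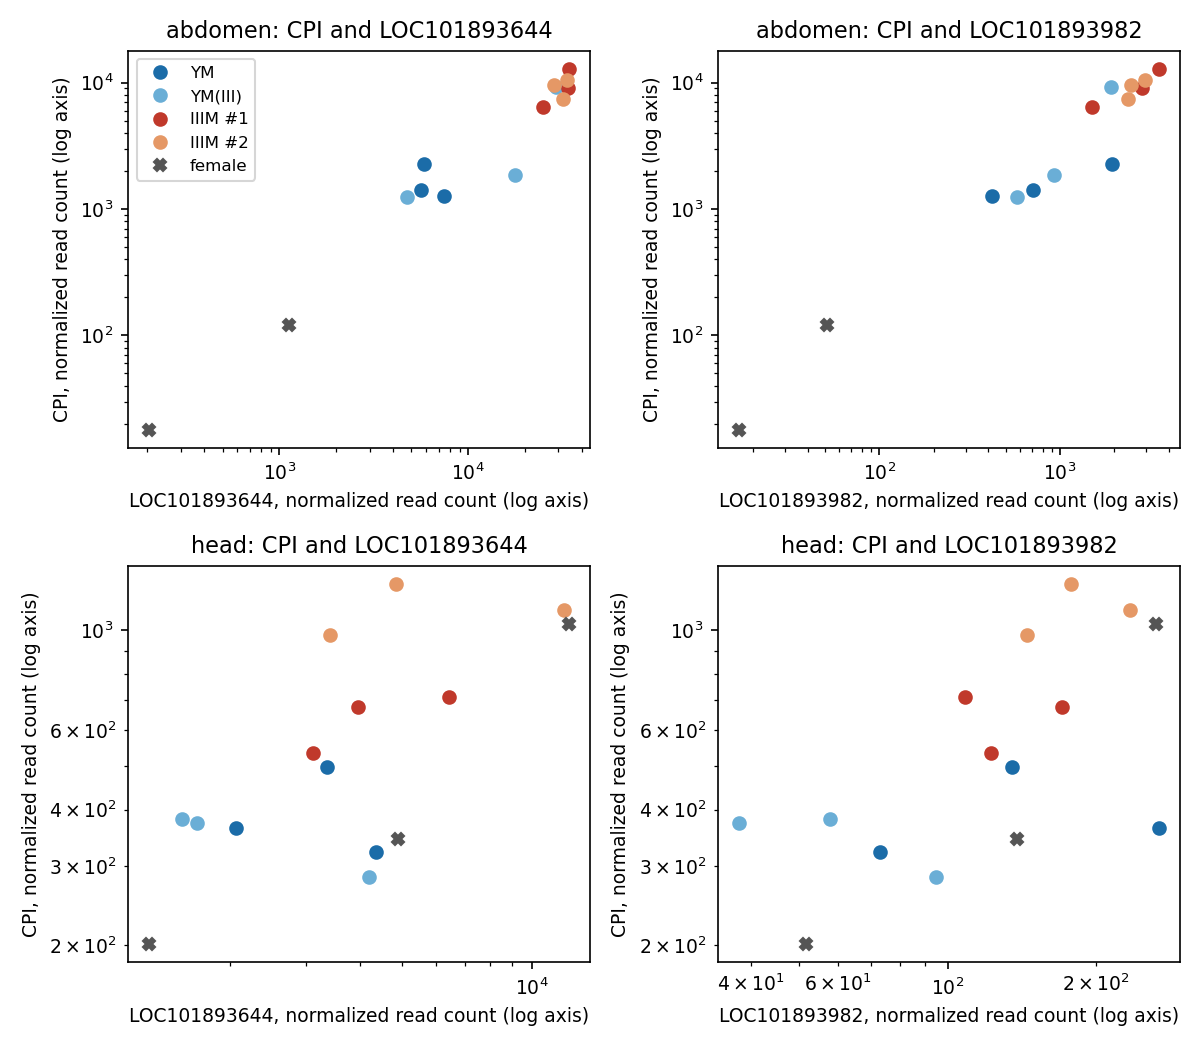
Normalized read counts (log axes) of CPI against the genes adjoining it, LOC101893644 (left) and LOC101893982 (right), in abdomen (top) and head (bottom). Each point is 1 library, coloured by male genotype, with females as crosses. In abdomen the libraries lie along a line in both panels, over 12 males with r of 0.92, and in head they are more scattered, with r of 0.59 and 0.55.

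In head the likeness was weaker. Over the 12 male heads, r with CPI was 0.59 for LOC101893644 and 0.55 for LOC101893982, and 2.01% and 2.71% of the 9885 genes compared had a higher r. LOC101894160 was at -0.57. Within the 6 YM-type heads r was -0.32 for LOC101893644 and 0.15 for LOC101893982, and within the 6 IIIM-type heads 0.48 and 0.67. The third replicate of each genotype had the highest LOC101893644 count of its genotype, at 4353 in YM, 4198 in YM(III), 6437 in IIIM #1 and 11862 in IIIM #2. In replicates 1 and 2 its r with CPI was 0.86 over 8 heads.

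The type difference of LOC101893644 in head was -0.93 (SE 0.37, limma adjusted p = 0.869), and with the replicate number as a block it was called (limma adjusted p = 0.0149), as it was in replicates 1 and 2 alone (limma adjusted p = 0.0405). For LOC101893982 it was -0.77 (SE 0.34, limma adjusted p = 0.983). Female heads had 1302, 12179 and 4904 of LOC101893644 in IsoCS, CSrab and CS, the order that CPI had. The difference of males and females in head passed the test for neither gene, at -0.23 (SE 0.56, limma adjusted p = 0.826) and -0.067 (SE 0.46, limma adjusted p = 0.942).

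CPI was no fixed share of its neighbour's reads. The CPI count was 8.81% to 38.7% of the LOC101893644 count over the abdomens and 6.74% to 28.6% over the heads, on a scale not corrected for gene length. Whether reads were shared between near-identical copies, or, for LOC101894160, between overlapping genes, was not tested, and the strand setting of the counting is not stated by the labels.

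The other genes most like CPI in male abdomen were LOC101888986 on element A (r = 0.90), SOD on element D (r = 0.87), which by its symbol is a superoxide dismutase, an enzyme that removes superoxide, and LOC101899470 on element A (r = 0.83). SOD ranged from 2149 to 4638 in YM-type and from 3937 to 6956 in IIIM-type abdomens. In head the 5 genes most like CPI were LOC101888270 (r = 0.90), LOC101894694 (r = 0.89), LOC101891264, LOC101894402 (each r = 0.88) and LOC101890383 (r = 0.87), of which none was among the 5 of abdomen. LOC101888270 had an r of -0.32 in abdomen. As CPI was chosen on its difference in head, genes that differ between the types there rank high by this measure.

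Taking the smaller r of the tissues, the leading genes were LOC109613465 on element E (0.72 in abdomen, 0.79 in head), LOC101900302 (0.70 and 0.78), LOC109613915 (0.70 and 0.69), LOC101888379 (0.67 and 0.83) and LOC101896003 (0.70 and 0.66). LOC109613465 ranged from 160 to 253 in YM-type and from 238 to 582 in IIIM-type abdomens, and from 264 to 403 and 311 to 778 in the heads.

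Serpins, a family of proteins that block serine proteases, were the genes of a list of protease inhibitors and proteases that could be found by symbol, 4 in number. Nothing in the files places CPI in this family. Between the proto-Y types, 0 of 4 were called in abdomen or head by limma, edgeR or DESeq2, and 0 had an unadjusted limma p under 0.05. With 0.0265% of all genes called in abdomen and 0.473% in head by limma, a count of 0 among 4 genes says nothing particular about serpins. The median log2 difference of the 4 was -0.12 in abdomen, against -0.0085 over all genes tested.

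Between the sexes in abdomen, 3 of 4 serpins were called, a share near the 71.3% of all genes called there. SPN9 was higher in males, by 5.19 (SE 0.45, limma adjusted p = 1.61e-06), from 263 to 1164 in males against 9.38 and 15.7 in females. SPN13 was also higher in males, by 2.62 (SE 0.76, limma adjusted p = 0.00865), and SPN15 was lower, by -1.32 (SE 0.23, limma adjusted p = 2.57e-04). Their median was 1.78, where the median of all genes was 0.42. In head, SPN15 was lower in males, by -0.72 (SE 0.22, limma adjusted p = 0.0404), where 16.5% of all genes were called. The number of serpins called there ranged from 0 to 3 over the alternatives, and the 3 came from replicates 1 and 2 alone, where 5501 of 11947 genes were called.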

How the data were processed

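Poly(A) RNA of single abdomens or heads was sequenced after Illumina TruSeq Stranded mRNA preparation, per the labels' protocols. The submitters' processing notes name DESeq2 1.16.1, HTSeq 0.9.1, HISAT2 0.12.2 and CASAVA 1.8, with a genome build not given in the sources used here. The values deposited by the authors are normalized read counts, a signal in which each library's reads are scaled by 1 factor. The authors also deposited log2 fold changes and adjusted p-values, which rest on replicates 1 and 2.

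CPI was found by its symbol in each table. Within a tolerance of 0.001 reads, 100% of values were whole multiples of 1 read, so reads were recovered. They gave depth, reads per M reads and exact Poisson intervals at 95%, which cover counting error only. Genes that reached 10 in 3 or more libraries entered limma 3.58.1 in R 4.3.3 on log2(value + 1), with a variance trend and robust moderation. Fold changes are on this scale. Comparisons among males were fitted on a tissue's 12 male libraries, and the sexes were compared as the mean of the 4 genotype means against the females. A gene was called where its two-sided p, adjusted by Benjamini and Hochberg's method, was under 0.05. Exact permutation tests of CPI alone were two-sided (scipy 1.17.1, Python 3.11.15), and plots used matplotlib 3.10.9. The code was tested on simulated data.

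Alternatives were a replicate block, pseudocounts of 5 and 0.1, a filter at a mean of 50 or none, TMM factors, edgeR 4.0.16 and DESeq2 1.42.0 on the recovered reads, the compared groups alone, replicates 1 and 2 alone, no library under 1.0 M reads, and each library left out. On the recovered reads edgeR called 3 genes between the types in abdomen and 44 in head. In head, all 18 pairs of same-numbered libraries correlated in their deviations from the group means (r from 0.29 to 0.68), so the numbers were taken to pair there. This pairing comes from the data, not from the labels. In abdomen 17 of 18 pairs passed 0.1, and the numbers were not taken to pair. In each tissue, however, 11 of 12 libraries correlated best with their own number. The main limma fits and the exact permutation tests leave the numbers out in both tissues. Their p-values therefore do not allow for effects shared by same-numbered libraries.

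The genes named are CPI, the 5 most correlated with it over male libraries in each tissue and in both, among genes with a mean of at least 50, the 3 neighbours on each side in the RefSeq table, and a list of protease inhibitors and proteases. CPI and the lists were chosen with earlier results of these data known. Matching of proteins by sequence was not done. The series' design calls the replicates biological and the flies were dissected singly, but rearing in separate cultures is not stated, so p-values measure the spread between these libraries.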

Additional observations from a re-analysis of the deposited data

Results flagged for a closer look

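In abdomen, the normalized count of 9156 for CPI in YM(III) replicate 2 stood far from the other 5 YM-type libraries, the next of which was at 2264. Its gap to that library was 0.870 of the range of the 6 libraries, above the limit of 0.625 of Dixon's test at 95%. Of 4 groups tested, this was the 1 found, and chance gives about 1 in 20 groups. The adjoining gene LOC101893644 was also highest among YM-type abdomens in this library, at 28999. The library held 8.58 M reads, of which 9492 were from CPI. What set this library apart was not tested.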

How the results depend on the processing

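The male excess of CPI in abdomen was called under every alternative run, from 5.15 to 7.84 with 1 library left out and from 6.15 to 6.71 otherwise. YM against IIIM in abdomen kept its direction in all 22 alternatives. It ranged from -2.55 to -1.83 with 1 library left out and passed in DESeq2 (-1.84) and without YM(III) replicate 2. In head that contrast, on which CPI was chosen, ranged from -1.29 to -1.13 with 1 library left out, and -1.03 was the smallest of the others. This range is a description only. YM against YM(III) in abdomen ranged from -1.37 to 0.071 with 1 library left out and turned positive without YM(III) replicate 2. IIIM #1 against IIIM #2 in abdomen, near 0, was positive with edgeR (0.023), DESeq2 (0.037), replicates 1 and 2 (0.10) and no library under 1.0 M reads (0.10), and ranged from -0.26 to 0.24 with 1 library left out. In head it was -0.89 in replicates 1 and 2, where it passed. The sexes in head ranged from -0.11 to 1.07 with 1 library left out, and passed without the CSrab female. For LOC101893982 in head the sexes were at 0.031 in replicates 1 and 2 and between -0.69 and 0.48 with 1 library left out, and for LOC101893644 between -1.09 and 0.52. The causes were not tested.

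In head the replicate block changed no call of CPI. In abdomen, where the numbers are not taken to pair, the block left YM against IIIM at -2.12 (adjusted p = 0.0894) and the sexes at 6.71, and 11 of 12 libraries correlated best with their own number. YM against IIIM #2 in abdomen had an adjusted p of 0.102, and of 0.0405 with the block. Genes called between types numbered 3 in abdomen (33 with the block, 137 by DESeq2) and 57 in head (180 by DESeq2, 548 in replicates 1 and 2). Between YM and YM(III) they numbered 1047 in abdomen (2379 with the block, 247 without libraries under 1.0 M reads) and 97 in head (1182 in replicates 1 and 2). Between the IIIM genotypes they numbered 5 in abdomen (26 by DESeq2) and 21 in head (477 in replicates 1 and 2), and between the sexes in head 2015 (5501 in replicates 1 and 2). Of the 5 genes most like CPI, 1 stayed in abdomen and 0 in head with replicates 1 and 2, and 3 in each with Spearman's rho. Where 1 female is left, that library is assumed to vary like the males. The shallowest abdomens had 0.789 and 0.791 M reads, and CPI had 185 and 1198 reads there.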
